A study of Mus musculus with 4 samples.

Results

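The genes described here are 48 symbols with more transcript in both libraries from Sox30 knockout mice than in both libraries from wild-type mice. Levels were given as FPKM, fragments scaled by the length of the transcript and the number of fragments mapped in the library. A symbol was taken when its lower knockout value was at least 10 FPKM and also at least 2.5 times its higher wild-type value. Both thresholds were met by 64 of the 22552 symbols, which is 0.284% of all symbols and 2.04% of the 3131 symbols whose lower knockout value was at least 10 FPKM. Clone-like symbols ending in Rik, several large families (ribosomal, proteasomal, respiratory chain, solute carrier and zinc finger genes among them) and Egln2 were then left out by name. That removed 16 symbols and left 48, or 1.96% of the 2449 symbols of that level with a kept name. The genes were thus chosen by the knockout and wild-type values themselves, which are given below as a description and without a test. The same thresholds turned round, which ask for a lower wild-type value of at least 10 FPKM and 2.5 times the higher knockout value, were met by 622 symbols, 15.7% of the 3950 symbols with such a wild-type level.

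RNA was sequenced from haploid cells, labelled as round spermatids, that had been sorted by fluorescence from Hoechst-stained testis cells of male mice at 23 days of age. Sox30 knockout mice gave 2 libraries and wild-type mice gave 2. The background strain label differed in every library: DBA/C58/ICR and DBA/C60/ICR for knockout libraries 1 and 2, and DBA/C57/ICR and DBA/C59/ICR for wild-type libraries 1 and 2. The sources used here give neither the knockout allele nor whether replicate libraries are separate animals, so the spread between libraries may be technical.

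Sox30 encodes a transcription factor of the SOX family, proteins that bind DNA through an HMG box and recognise a short A- and T-rich core. It is expressed in male germ cells around and after meiosis, and male mice without it make no sperm, because haploid cells stop as early round spermatids. At that stage many transcripts are made or stored ahead of the shaping of the sperm head and tail. The products of the genes below act elsewhere in lipoproteins, the stomach lining, the hydrolysis of nucleotide compounds, chromatin and membrane traffic.

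Sox30 itself had 1.46 and 3.16 FPKM in the knockout libraries, against 11.4 and 16.2 FPKM in wild-type libraries. Relative sequencing depth, read from steps between low values with wild-type library 1 as 1, was 1.248 and 1.17 in the knockout libraries and 1.39 in wild-type library 2; absolute depth is unknown. Knockout library 2 had the most symbols at 0, with 11112, against 9329 in knockout library 1 and 6414 and 5915 in the wild-type libraries. Among marker lists, adjusted p-values of limma, a linear model fitted to all 9124 genes with a mean of at least 1 FPKM, were under 0.05 for 13 of 18 round spermatid genes and 10 of 12 elongating spermatid genes, all lower in the knockout. The same held for 4 of 15 early meiotic genes, 4 of 7 spermatogonial genes, 2 of 3 Leydig cell genes, 2 of 4 red blood cell genes and 1 of 2 peritubular, endothelial and stromal genes. None of the 20 pachytene to diplotene, 7 Sertoli cell or 2 leukocyte genes tested passed in either direction (at an unadjusted p under 0.05, 1, 3 and 0 were lower and 0, 0 and 1 higher), and no marker list holds a gene of the set. In sorted cells, a change in the share of cells of a type and a change in RNA per cell cannot be told apart. Round spermatid markers summed to 1029 and 805 FPKM in the knockout libraries, against 4357 and 3866 FPKM in wild-type libraries. Elongating spermatid markers summed to 832 and 534 FPKM in the knockout libraries, against 14886 and 9303 FPKM in wild-type libraries. Most of that knockout sum was Odf2, at 771 and 498 FPKM in the knockout libraries, against 434 and 657 FPKM in wild-type libraries. The part of these 2 cell types in the levels of the set was not tested. Over the 9124 genes, 178 were higher in the knockout by limma (1.95%) and 1221 were lower (13.4%). Without wild-type library 1, 0 were higher and 386 lower, and without wild-type library 2, 0 passed in either direction (232 higher and 1180 lower at an unadjusted p under 0.05). Every limma call below therefore needs wild-type library 2, and every call of a rise needs both.

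All 48 genes passed the filter of that fit, since the rule itself asks for more. Their lower knockout values ran from 10.6 FPKM for Fhit to 665 FPKM for Myl10, and the median of their mean level was 31.6 FPKM in knockout libraries and 7.61 FPKM in wild-type libraries. In the wild type, 30 of the 48 averaged under 10 FPKM. By class, 29.2% averaged under 5 FPKM, against 37.2% of the genes tested, and 33.3% from 5 to below 10 FPKM, against 15.8%. A mean of 50 FPKM or more was found for 7 (14.6%), against 18.5% of the genes tested. The rule itself favours low wild-type values. Summed over the set, the level was 4379 and 4682 FPKM in the knockout libraries, or 0.733% and 0.694% of all FPKM, against 1093 and 1033 FPKM, or 0.193% and 0.206%, in the wild-type libraries. Of the 48, 11 stood among the 1000 symbols of highest mean level in the knockout, against 3 in the wild type.

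**Figure D1:**
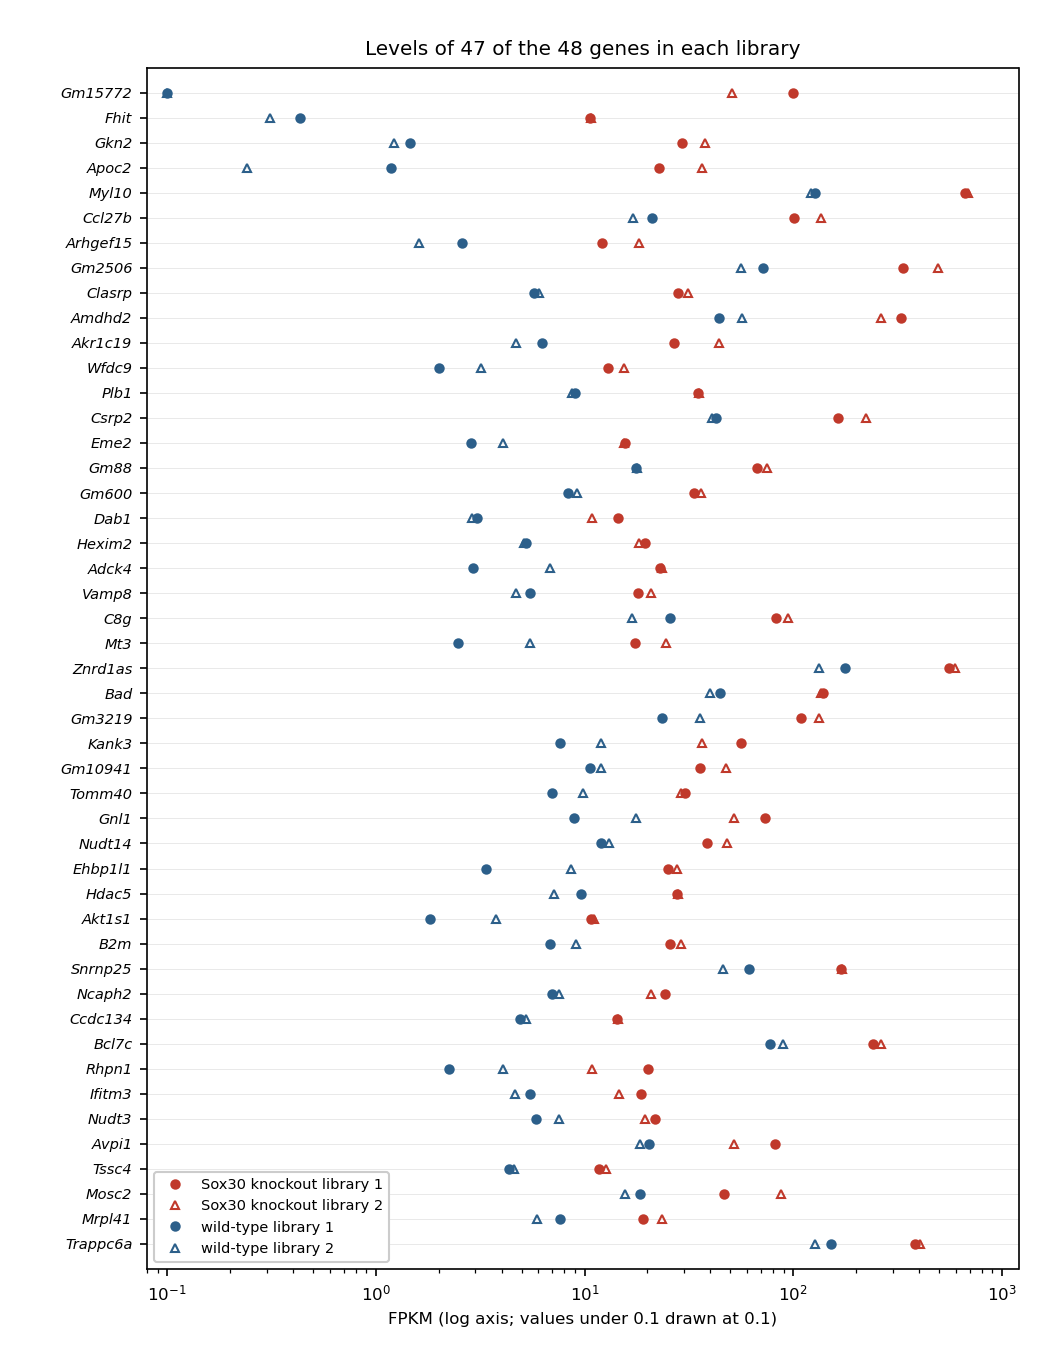
Level of 47 of the 48 genes in FPKM on a log axis, 1 row per gene in order of the ratio of lower knockout to higher wild-type value; red marks are the 2 Sox30 knockout libraries and blue marks the 2 wild-type libraries, with values under 0.1 drawn at 0.1. Gm15772, Fhit, Gkn2 and Apoc2 have the widest gaps, and Trappc6a, at a ratio of 2.52, the narrowest.

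The ratio of lower knockout to higher wild-type value was split unevenly over the set. It was at least 10 for 3 genes (Fhit, Gkn2 and Apoc2), lay between 3 and 6 for 23 and was under 3 for 21. It could not be formed for Gm15772, which was listed at near 0 in the wild type. The median ratio was 3.04, or 1.60 on the log2 scale. On the log2(FPKM + 1) scale the median difference, knockout minus wild type, was 1.90 for the set and -0.23 for the 9124 genes tested, a gap that the rule itself imposes.

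**Figure D2:**
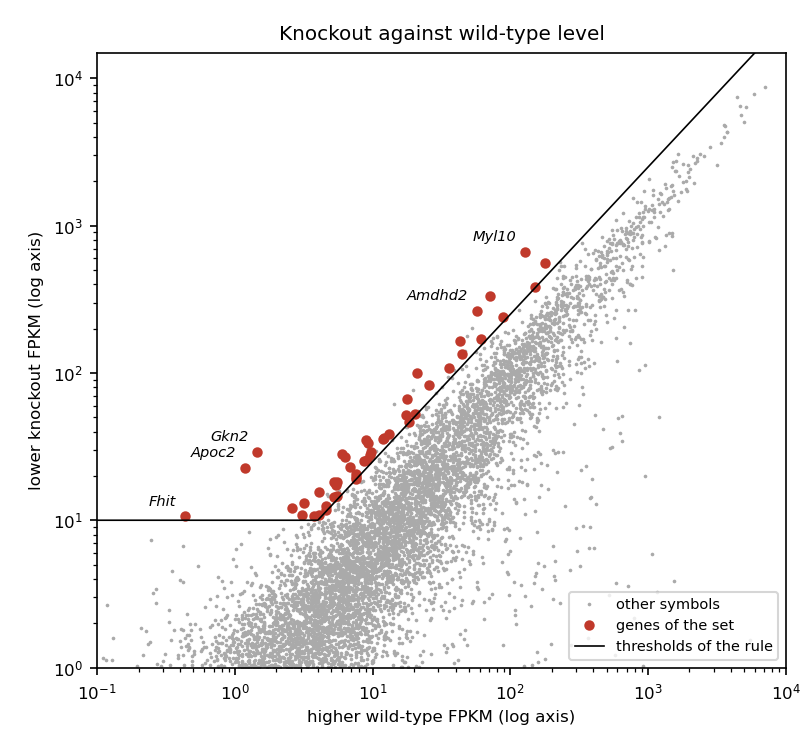
Lower knockout FPKM against higher wild-type FPKM, both on log axes; each grey dot is a symbol with at least 1 FPKM on the vertical and 0.1 FPKM on the horizontal axis, red dots are genes of the set, and the line marks the thresholds of the rule. Fhit, Gkn2 and Apoc2 lie farthest to the left of the sloped part of the line, and the other red dots run closer along it up to Myl10. Gm15772 falls outside the axes, and grey dots above the line are symbols left out by name.

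The thresholds cut through a continuous range. The smallest ratios inside were 2.52 for Trappc6a, 2.52 for Mrpl41 and 2.54 for Mosc2, and the largest outside were 2.49 for B9d2, 2.49 for Gm14920 and 2.48 for Rnaseh2c. On the level threshold, Fhit (10.6 FPKM), Akt1s1 (10.7 FPKM) and Dab1 (10.8 FPKM) were just inside by their lower knockout value. Dvl1 (9.43 FPKM), Tomm5 (9.33 FPKM) and Fxr2 (9.04 FPKM) met the ratio and missed the level.

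Fhit encodes a hydrolase of diadenosine triphosphate of the histidine triad (HIT) family and is known as a tumour suppressor at a fragile site. It had 10.6 and 10.7 FPKM in the knockout libraries, against 0.432 and 0.310 FPKM in wild-type libraries, a ratio of 24.6. The knockout libraries agreed within 1.01-fold, and the wild-type values were near the bottom of the measured range. The RefSeq promoter windows of GRCm38.p6, which hold 250 bases before and 50 bases after an annotated start, give Fhit 2 starts on chromosome 14. Both windows are shown because the distal and the internal start differ in the letters searched; capitals mark AACAAT (the SOX core), CCAAT and GGGCGG (the GC box) or their reverse complements. The first window is chr14:11161986-11162285 and the second, which holds the only SOX core of this pair, is chr14:10453409-10453708, both on the minus strand.
Fhit distal start: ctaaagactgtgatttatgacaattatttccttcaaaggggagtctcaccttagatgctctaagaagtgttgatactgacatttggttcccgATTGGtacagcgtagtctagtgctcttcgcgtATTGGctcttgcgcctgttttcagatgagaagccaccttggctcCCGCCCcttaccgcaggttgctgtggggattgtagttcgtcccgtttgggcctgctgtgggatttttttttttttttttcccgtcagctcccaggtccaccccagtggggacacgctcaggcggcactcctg
Fhit internal start: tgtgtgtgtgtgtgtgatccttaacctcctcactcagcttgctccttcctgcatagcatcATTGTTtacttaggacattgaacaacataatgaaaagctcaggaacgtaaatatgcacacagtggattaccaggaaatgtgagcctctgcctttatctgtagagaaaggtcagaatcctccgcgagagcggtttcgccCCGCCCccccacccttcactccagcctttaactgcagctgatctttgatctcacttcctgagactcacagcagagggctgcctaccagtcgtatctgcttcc

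Gkn2 encodes gastrokine 2, a secreted BRICHOS-domain protein of the stomach lining. Its level was 29.2 and 37.9 FPKM in the knockout libraries, against 1.46 and 1.22 FPKM in wild-type libraries, a ratio of 20.03. Apoc2 encodes apolipoprotein C-II, the cofactor that lipoprotein lipase needs to break down triglycerides. It had 22.8 and 36.7 FPKM in the knockout libraries, against 1.18 and 0.242 FPKM in wild-type libraries, a ratio of 19.3. Both genes were low in every wild-type library, and for Apoc2 those libraries lay 4.90-fold apart, the widest wild-type spread in the set. The windows of Gkn2 (chr6:87373115-87373414, plus strand) and Apoc2 (chr7:19677892-19678191, minus strand), also from RefSeq on GRCm38.p6, are set side by side because the Gkn2 window holds a CCAAT and a GGGCGG and the Apoc2 window holds neither; capitals are as for Fhit.
Gkn2: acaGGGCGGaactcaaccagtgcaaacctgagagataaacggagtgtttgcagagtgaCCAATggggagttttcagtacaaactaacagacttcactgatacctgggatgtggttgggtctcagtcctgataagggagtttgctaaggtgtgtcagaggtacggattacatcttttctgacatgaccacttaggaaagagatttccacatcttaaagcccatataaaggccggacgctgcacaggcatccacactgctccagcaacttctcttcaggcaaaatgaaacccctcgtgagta
Apoc2: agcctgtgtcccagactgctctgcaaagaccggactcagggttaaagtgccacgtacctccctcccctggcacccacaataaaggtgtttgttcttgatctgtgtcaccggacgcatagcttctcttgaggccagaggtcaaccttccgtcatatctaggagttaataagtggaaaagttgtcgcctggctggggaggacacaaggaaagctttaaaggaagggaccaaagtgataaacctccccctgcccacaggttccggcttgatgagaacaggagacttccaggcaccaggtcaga

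Gm15772, on chromosome 5, is annotated as a pseudogene of the ribosomal protein gene Rpl26. It had 99.2 and 50.6 FPKM in the knockout libraries and was listed at 1.83e-05 and 5.56e-06 FPKM in wild-type libraries, so no ratio is given. Its 438-base transcript in GENCODE M21 matched an Rpl26 transcript, from chromosome 11, at 436 positions (99.5%). With positions counted from 1 at the 5′ end of the Gm15772 transcript and the Rpl26 base written first, the differences are C177T and T288C. The stretch around the first is shown, because reads that miss both positions fit either gene equally well; the capital marks the differing base.
Gm15772: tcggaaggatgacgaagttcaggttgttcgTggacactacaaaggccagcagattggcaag
Rpl26: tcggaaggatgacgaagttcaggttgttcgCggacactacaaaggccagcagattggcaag

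Rpl26, which met both thresholds and was left out by name, had 141 and 378 FPKM in the knockout libraries, against 46.7 and 41.6 FPKM in wild-type libraries. Gm10136, another copy (98.9% identical over 435 bases), had 56.2 and 86.3 FPKM in the knockout libraries, against 36.5 and 29.2 FPKM in wild-type libraries. The 3 summed to 297 and 515 FPKM in the knockout libraries, against 83.2 and 70.8 FPKM in wild-type libraries, a ratio of 3.56. Gm15772 made up 33.4% and 9.83% of that sum in the knockout libraries and almost nothing in the wild type. Since Gm15772 and Rpl26 both met the thresholds, the direction of that sum follows from the values that chose them, and of the 3 genes Gm10136 alone was not chosen by them. The share given to Gm15772 differed more than 3-fold between the knockout libraries.

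The other secreted proteins were Ccl27b, C8g, Wfdc9 and Ccdc134. Ccl27b encodes a chemokine of the CCL27 family, which draws lymphocytes to skin. It stood on 2 entries that were summed to 100.4 and 136 FPKM in the knockout libraries, against 20.9 and 17.1 FPKM in wild-type libraries, a ratio of 4.80. C8g, the gamma chain of complement component C8 and a lipocalin, had 83.1 and 94.2 FPKM in the knockout libraries, against 25.6 and 16.9 FPKM in wild-type libraries. Wfdc9, a small protein with a whey acidic protein type domain, had 13.01 and 15.4 FPKM in the knockout libraries, against 2.011 and 3.19 FPKM in wild-type libraries. Ccdc134, a coiled-coil protein of the secretory pathway, showed the closest agreement of these, at 14.3 and 14.5 FPKM in the knockout libraries, against 4.89 and 5.24 FPKM in wild-type libraries. In all 4, the lower knockout library was at least 2.73 times the higher wild-type library.

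Ccl27b also has near-identical copies, on chromosome 4. Its 425-base transcript matched Ccl27a at 422 positions (99.3%), and 418 of its bases matched Gm13306 without a difference. Against Ccl27a, with the Ccl27a base written first and positions counted from the 5′ end of the Ccl27b transcript, the differences are C211T, G331A and A377C. The first is shown for the same reason as above.
Ccl27b: gaactgcaggaggcTgatggggactgtca
Ccl27a: gaactgcaggaggcCgatggggactgtca

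Ccl27a was the more abundant copy, at 737 and 1085 FPKM in the knockout libraries, against 583 and 488 FPKM in wild-type libraries. Its log2 difference of 0.74 ± 0.31 (SE) did not pass (limma adjusted p = 0.166). Ccl27b made up 11.996% and 11.1% of the 2 genes together in the knockout libraries, against 3.46% and 3.38% in the wild-type libraries. The sum of Ccl27a, Ccl27b and Gm13306 was 841 and 1221 FPKM in the knockout libraries, against 604 and 506 FPKM in wild-type libraries, a ratio of 1.39. That ratio is under the rule's threshold, so Ccl27b met the rule by itself but its family did not.

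**Figure D3:**
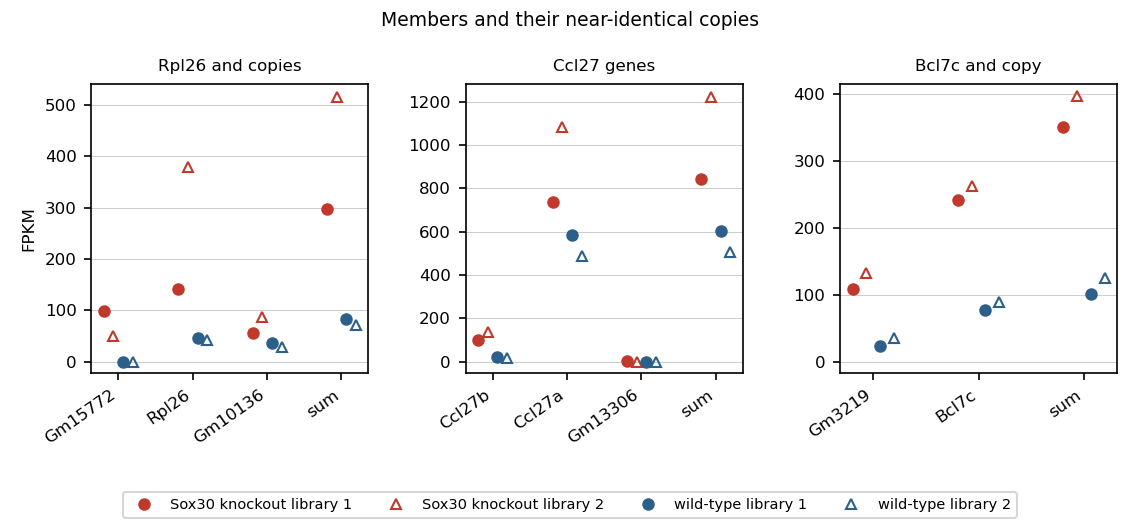
FPKM (linear axis) of genes of the set, their near-identical copies and the sum of each family, with red marks for the 2 Sox30 knockout libraries and blue marks for the 2 wild-type libraries. Family sums are higher in both knockout libraries in all 3 panels, by a ratio of 3.56 for Rpl26 and copies, 1.39 for the Ccl27 genes and 2.80 for Bcl7c and its copy; Rpl26, Bcl7c and the copies Gm15772 and Gm3219 each met the thresholds of the rule, so the direction of those 2 sums is a description.

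Another pair lay within the set. Gm3219, annotated as a transcribed pseudogene on chromosome 14, is 303 bases long and matched Bcl7c on chromosome 7 at every base. It had 108 and 133 FPKM in the knockout libraries, against 23.5 and 35.9 FPKM in wild-type libraries. Bcl7c, a subunit of BAF chromatin remodelling complexes, had 242 and 263 FPKM in the knockout libraries, against 77.3 and 89.2 FPKM in wild-type libraries. Their sum was 350 and 396 FPKM in the knockout libraries, against 101 and 125 FPKM in wild-type libraries, a ratio of 2.80 that the rule itself keeps at 2.5 or more, and over those bases the reads of the 2 genes cannot be told apart. Of the 47 genes with a GENCODE transcript, 4 had a copy of at least 95% identity over at least 50% of the transcript. Besides those above, this was Apoc2, of which 647 bases match Gm44805, a gene annotated over it on the same strand. Copies were sought for the set and Rpl26 only, so the share over all genes tested is not known.

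Metabolic enzymes and metal-binding proteins numbered 7. Amdhd2, the deacetylase of N-acetylglucosamine 6-phosphate that returns amino sugars to glycolysis, was the most abundant, with 327 and 265 FPKM in the knockout libraries, against 44.3 and 57.0 FPKM in wild-type libraries, a ratio of 4.64. Akr1c19, an aldo-keto reductase, had 26.8 and 44.3 FPKM in the knockout libraries, against 6.27 and 4.69 FPKM in wild-type libraries. Plb1, phospholipase B, had 35.02 and 35.3 FPKM in the knockout libraries, against 9.02 and 8.67 FPKM in wild-type libraries. The genotypes were apart in these 3, as the rule requires, and Plb1 varied least within each genotype. Mt3, a metallothionein that binds zinc and copper, had 17.5 and 24.7 FPKM in the knockout libraries, against 2.48 and 5.46 FPKM in wild-type libraries. Its neighbour Mt2 had 996 and 1619 FPKM in the knockout libraries, against 759 and 588 FPKM in wild-type libraries (log2 difference 0.93, limma adjusted p = 0.131). Mt2 was thus far the more abundant metallothionein and missed the threshold.

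Nudt14 and Nudt3 are Nudix hydrolases, Nudt14 of UDP-glucose and Nudt3 of diphosphoinositol polyphosphates. Nudt14 had 38.5 and 48.3 FPKM in the knockout libraries, against 12.01 and 13.1 FPKM in wild-type libraries. Nudt3 had 21.9 and 19.6 FPKM in the knockout libraries, against 5.82 and 7.57 FPKM in wild-type libraries. With Fhit they are 3 of the 20 HIT and Nudix genes tested. None of the other 17 passed limma in either direction (4 were higher and 1 lower at an unadjusted p under 0.05). The median log2 difference of the 20 was 0.36, against -0.23 over all genes tested. The 20 include the 3 genes that the rule chose as higher, which raises that median in advance. The nearest was Nudt18, at 151 and 113 FPKM in the knockout libraries, against 47.8 and 64.9 FPKM in wild-type libraries (log2 difference 1.22 ± 0.32 SE, limma adjusted p = 0.0572).

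Of 12 other genes of the amino sugar pathway that were tested, 2 fell by limma (16.7%, against 13.4% of all genes tested) and none rose, a share near that of all genes. Gnpda1 and Gnpda2 encode the glucosamine-6-phosphate deaminases that act on the product of Amdhd2. Gnpda1 fell to 1.38 and 2.13 FPKM in the knockout libraries, against 9.36 and 9.39 FPKM in wild-type libraries (log2 difference -1.93 ± 0.36 SE, limma adjusted p = 0.0183). Gnpda2 fell to 12.9 and 4.46 FPKM in the knockout libraries, against 42.7 and 30.9 FPKM in wild-type libraries (log2 difference -2.10 ± 0.52 SE, limma adjusted p = 0.0469). The list's median log2 difference, with Amdhd2 included, was -0.48. Neither deaminase passed limma when either wild-type library was left out, with adjusted p between 0.262 and 0.442, or with no filter on low values (0.0729 for Gnpda1 and 0.235 for Gnpda2). Gnpda1 did not pass with quantile scaling either (0.0561), nor Gnpda2 with a pseudocount of 0.1 (0.0837) or GC correction (0.0991).

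Around Apoc2, 8 other genes of apolipoprotein and lipoprotein handling were tested. Lipe, the hormone-sensitive lipase, fell to 0.102 and 0.127 FPKM in the knockout libraries, against 1.85 and 2.55 FPKM in wild-type libraries (log2 difference -1.51 ± 0.31 SE, limma adjusted p = 0.0264). It was 1 of the 8 (12.5%, against 13.4% of all genes tested), and the list's median log2 difference, with Apoc2 included, was -0.35. Lipe did not pass limma with no filter on low values (adjusted p = 0.117), quantile scaling (0.116) or the library number as a block (0.0554). Apoh and Lmf1, its most abundant genes, had log2 differences of -0.33 and -0.03. Besides Gkn2, the 3 gastrokine, trefoil or BRICHOS genes tested were Itm2b, Itm2c and Lect1, with log2 differences of 0.10, 0.04 and 0.01, none of which passed limma, with 0 at an unadjusted p under 0.05. Among chemokines and genes next to Ccl27, none of the 6 other genes tested passed limma (1 was higher and 1 lower at an unadjusted p under 0.05). Il11ra2, beside Ccl27b, had 1.54 and 2.25 FPKM in the knockout libraries, against 0.343 and 0.236 FPKM in wild-type libraries (limma adjusted p = 0.0651). P2X receptors, ion channels opened by ATP, were listed as well because P2rx5 stood out in earlier results. P2rx5 rose to 13.3 and 7.34 FPKM in the knockout libraries, against 0.124 and 0.245 FPKM in wild-type libraries (log2 difference 3.21 ± 0.41 SE, limma adjusted p = 0.00435), but its level in knockout library 2 kept it outside the rule. P2rx2 fell to 0.518 and 0 FPKM in the knockout libraries, against 3.07 and 6.48 FPKM in wild-type libraries (log2 difference -2.16 ± 0.45 SE, limma adjusted p = 0.0261). Without either wild-type library in turn, adjusted p of limma for Lipe, P2rx5 and P2rx2 lay between 0.0506 and 0.285. With no filter on low values it was 0.0803 for P2rx5 and 0.176 for P2rx2, and with a pseudocount of 0.1 it was 0.0740 for P2rx2.

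The mitochondrial group held 5 genes, with ratios from 2.52 to 3.35. Bad, a BH3-only protein that favours cell death, was the most abundant, at 139 and 135 FPKM in the knockout libraries, against 44.5 and 39.9 FPKM in wild-type libraries. Tomm40, the import pore of the outer membrane, had 30.4 and 28.99 FPKM in the knockout libraries, against 7.01 and 9.77 FPKM in wild-type libraries. Adck4 (now Coq8b), an atypical kinase of coenzyme Q synthesis, had 22.9 and 23.6 FPKM in the knockout libraries, against 2.93 and 6.84 FPKM in wild-type libraries. The knockout libraries agreed closely for these 3, and the wild-type libraries of Adck4 lay 2.33-fold apart. Mosc2 (now Mtarc2), an amidoxime-reducing enzyme of the outer membrane, had 46.7 and 87.6 FPKM in the knockout libraries, against 18.4 and 15.7 FPKM in wild-type libraries. Mrpl41, a protein of the mitochondrial ribosome, had 19.1 and 23.4 FPKM in the knockout libraries, against 7.58 and 5.90 FPKM in wild-type libraries.

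Nuclear proteins made up 8 genes. Clasrp, an SR-like protein that binds the splicing kinase CLK4, led by ratio (4.65), with 28.005 and 31.3 FPKM in the knockout libraries, against 5.71 and 6.02 FPKM in wild-type libraries. Eme2, a partner of the MUS81 endonuclease, had 15.6 and 15.5 FPKM in the knockout libraries, against 2.84 and 4.08 FPKM in wild-type libraries. Hexim2, an inhibitor of the elongation kinase P-TEFb, had 19.5 and 18.3 FPKM in the knockout libraries, against 5.22 and 5.11 FPKM in wild-type libraries. All 3 varied little between the knockout libraries. Hdac5, a class IIa histone deacetylase, had 27.7 and 28.02 FPKM in the knockout libraries, against 9.62 and 7.12 FPKM in wild-type libraries. Snrnp25, of the minor spliceosome, was more abundant, with 169.8 and 171 FPKM in the knockout libraries, against 61.5 and 45.9 FPKM in wild-type libraries. Bcl7c was given above, and Ncaph2, of condensin II, and Tssc4, an assembly factor of the U5 snRNP, had ratios of 2.76 and 2.55. Tssc4 had 11.7 and 12.6 FPKM in the knockout libraries, against 4.34 and 4.60 FPKM in wild-type libraries, the smallest log2 difference of the set, 1.27.

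The largest group, with 13 genes, comprised cytoskeletal, membrane traffic and signalling proteins. Myl10, a myosin regulatory light chain, had the highest knockout level of all 48, at 665 and 689 FPKM in the knockout libraries, against 127 and 122 FPKM in wild-type libraries, a ratio of 5.24. Trappc6a, a subunit of TRAPP tethering complexes, came second in this group, with 381 and 404 FPKM in the knockout libraries, against 151 and 128 FPKM in wild-type libraries. Csrp2, a LIM-domain protein that binds actin structures, had 165 and 222 FPKM in the knockout libraries, against 42.8 and 41.0 FPKM in wild-type libraries. These 3 were already well expressed in the wild type. Arhgef15, an exchange factor for small GTPases, had 12.1 and 18.3 FPKM in the knockout libraries, against 2.60 and 1.61 FPKM in wild-type libraries. Dab1, the adaptor of reelin signalling, had 14.4 and 10.8 FPKM in the knockout libraries, against 3.06 and 2.89 FPKM in wild-type libraries. Gm600 (now Nuggc), a GTPase named for germinal centre B cells, had 33.6 and 36.1 FPKM in the knockout libraries, against 8.29 and 9.22 FPKM in wild-type libraries. In all 3 the knockout libraries lay above the wild type, as the rule requires, from a low wild-type level.

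Ratios of the other 7 genes of the group ran from 2.57 for Avpi1 to 3.30 for Vamp8. Vamp8, a SNARE of endosomes, had 18.1 and 20.7 FPKM in the knockout libraries, against 5.49 and 4.70 FPKM in wild-type libraries. Kank3, an ankyrin repeat protein, had 56.4 and 36.3 FPKM in the knockout libraries, against 7.63 and 12.04 FPKM in wild-type libraries. Gnl1, a GTP-binding protein, is described with the overlapping genes. In both Vamp8 and Kank3 each knockout library was above each wild-type library, as the rule requires. Ehbp1l1, of membrane traffic, had 25.2 and 27.7 FPKM in the knockout libraries, against 3.36 and 8.61 FPKM in wild-type libraries. Akt1s1, the mTORC1 inhibitor PRAS40, was at the edge of the level threshold, with 10.7 and 11.1 FPKM in the knockout libraries, against 1.81 and 3.77 FPKM in wild-type libraries. In both Ehbp1l1 and Akt1s1 the wild-type libraries differed more than the knockout libraries. Rhpn1 had 20.07 and 10.9 FPKM in the knockout libraries, against 2.23 and 4.09 FPKM in wild-type libraries. Avpi1, a vasopressin-induced protein, had 81.5 and 52.3 FPKM in the knockout libraries, against 20.3 and 18.4 FPKM in wild-type libraries. Knockout library 1 was the higher of its pair in both Rhpn1 and Avpi1.

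B2m, the light chain of MHC class I molecules, and Ifitm3, an interferon-induced membrane protein, formed an immune pair. B2m had 25.6 and 29.1 FPKM in the knockout libraries, against 6.82 and 9.11 FPKM in wild-type libraries. Ifitm3 had 18.7 and 14.6 FPKM in the knockout libraries, against 5.50 and 4.62 FPKM in wild-type libraries, and its neighbour Ifitm2 had 29.95 and 9.71 FPKM in the knockout libraries, against 4.10 and 2.56 FPKM in wild-type libraries (log2 difference 2.09, limma adjusted p = 0.0653). The 15 leukocyte markers in the tables summed to 26.1 and 23.8 FPKM in the knockout libraries, against 16.7 and 12.5 FPKM in wild-type libraries. Most of that sum was H2-Ab1, an MHC class II gene, at 21.4 and 21.6 FPKM in the knockout libraries, against 14.004 and 9.09 FPKM in wild-type libraries. Of the 15, 12 were under 1 FPKM in all 4 libraries, and the defining markers Ptprc and C1qa were at 0 in both knockout libraries. The part of such cells in the B2m and Ifitm3 values was not tested.

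The last 7 were grouped by name or annotation as predicted genes, pseudogenes or antisense and noncoding genes. RefSeq annotates 45 of the 48 as protein coding, Znrd1as, Gm2506 and Gm88 among them, and 3 as not (Gm15772, Gm3219 and Gm10941). Znrd1as, antisense to Znrd1, had 559 and 596 FPKM in the knockout libraries, against 178 and 133 FPKM in wild-type libraries. Znrd1 itself had 101 and 149 FPKM in the knockout libraries, against 112 and 88.4 FPKM in wild-type libraries (log2 difference 0.30, limma adjusted p = 0.563). The antisense gene was thus the more abundant of the pair, and Znrd1 did not pass. Gm2506, on 2 summed entries and with no GENCODE transcript matched, had 334 and 491 FPKM in the knockout libraries, against 71.7 and 56.4 FPKM in wild-type libraries. Gm88 (now Lrrc73) had 66.7 and 75.2 FPKM in the knockout libraries, against 17.6 and 17.9 FPKM in wild-type libraries. Gm10941, an annotated lncRNA, had 35.8 and 47.5 FPKM in the knockout libraries, against 10.6 and 11.95 FPKM in wild-type libraries. Gm15772 and Gm3219 also belong to the group.

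The median fold between the knockout libraries was 1.15 for the set and 1.38 for the 3083 other symbols with a lower knockout value of at least 10 FPKM. Between the wild-type libraries it was 1.29 for the set and 1.21 for the others, which keep the name classes left out of the set. The rule takes the lower knockout value, so close knockout libraries help a gene to pass. The wild-type libraries differed by more than 2-fold for 5 of 47 genes, leaving out Gm15772, which was near 0 in both. Knockout library 2 was the higher of its pair for 33 of the 48, against 1237 of the 3083 others.

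GC content of the longest transcript was higher in the set than around it. The median was 55.2% for the 47 genes with a GENCODE M21 transcript, against 50.01% for the 3056 other symbols with a lower knockout value of at least 10 FPKM and 49.1% for the genes tested. Both comparison groups keep the name classes that were left out of the set, here and for the classes, length, chromosomes and promoters below. Over 55% GC were 24 of the 47 (51.1%), against 22.3% of those others and 20.2% of the genes tested. The genes that met the thresholds turned round, with the same name classes left out, had a median of 48.01%. When the symbols with that knockout level were ordered by GC content and cut into 5 classes of equal size, the set made up 0.322%, 0.484%, 1.61%, 1.77% and 3.38%. The same classes also differed over all their symbols: the median log2 difference was -0.12, 0.04, 0.21, 0.36 and 0.65 from the lowest to the highest GC content. Trappc6a (62.3%), Mt3 (62.3%) and Gm88 (61.4%) had the highest GC content, and B2m (41.2%), Akr1c19 (41.2%) and Znrd1as (44.4%) the lowest.

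Levels were then corrected for the trend with GC content within each library, and the rule was applied again. It chose 39 genes, of which 25 were among the 48, that is 64.1% of the 39 and 52.1% of the 48. The 25 had a median GC content of 51.1% and the other 23 a median of 57.1%. The kept genes included Gkn2 (corrected ratio 27.5), Fhit (23.5), Apoc2 (10.5), Akr1c19 (6.31), Gm2506 (4.66, not corrected, since it has no GC value), Myl10 (4.23), Znrd1as (3.96), B2m (3.63), Ccl27b (3.41), Amdhd2 (3.22) and Gm15772. Those below the threshold after correction included Trappc6a (1.46), Tssc4 (1.49), Hdac5 (1.64), Snrnp25 (1.92), Gm3219 (1.93), Bad (1.95), Gm88 (2.17), C8g (2.48) and Arhgef15, whose corrected ratio of 2.82 came with a lower knockout value of 9.58 FPKM. The genes with the widest gaps met the rule either way, and 23 of the 48 met it only without the correction.

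**Figure D4:**
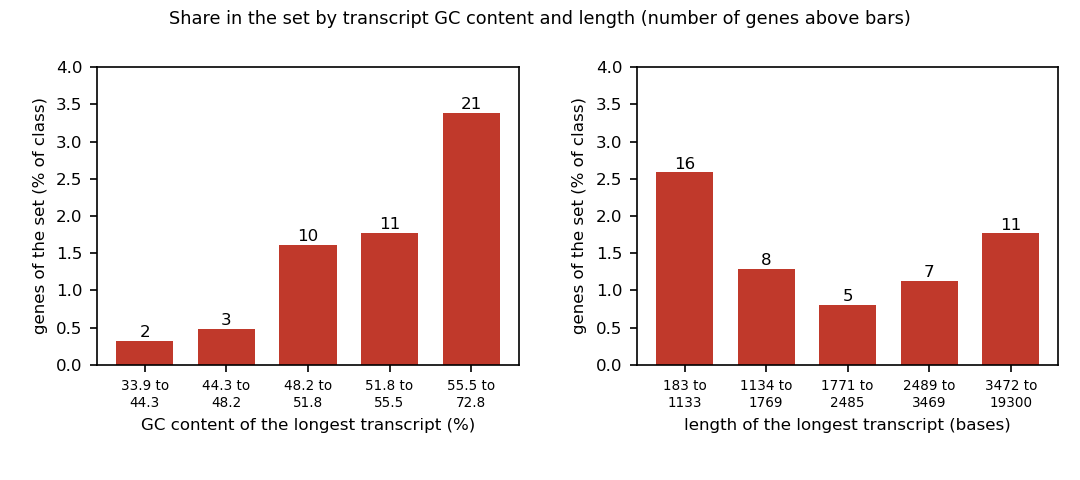
Share of symbols with a lower knockout value of at least 10 FPKM that belong to the set, in percent, by 5 classes of equal size of GC content (left) and of length (right) of the longest transcript; the number above each bar counts genes of the set. The share runs from 0.322% to 3.38% with GC content, and with length it is highest in the shortest class, at 2.58%. The symbols of each class include the name classes left out of the set.

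Transcripts of the set were shorter than those around it, with a median of 1735 bases, against 2090 bases in the other symbols of that knockout level and 2716 bases in the genes tested. Under 1000 bases were 14 of the 47 (29.8%), against 15.1% of the others and 10.2% of the genes tested. By 5 such classes of length the set made up 2.58%, 1.29%, 0.805%, 1.13% and 1.77% from short to long, so both ends held more of it than the middle. Gm3219 (303 bases), Ccl27b (425 bases) and Gm15772 (438 bases) were the shortest, and Ehbp1l1 (6404 bases), Bcl7c (6235 bases) and Akr1c19 (5832 bases) the longest. The median log2 difference over all symbols of a length class was 0.60 in the shortest and 0.01 in the longest.

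All 48 genes lie on autosomes, on 15 chromosomes. Chromosome 7 held 9 of them (18.8%, against 8.37% of symbols with a lower knockout value of at least 10 FPKM) and chromosome 17 held 7 (14.6%, against 6.32%). The X chromosome held none, and 0.990% of the symbols of that level. On chromosome 7, Trappc6a, Clasrp, Apoc2 and Tomm40 lie within 9 steps of each other in the RefSeq order of tested genes. None of the 6 tested genes between them passed in that direction. How often other genes of that knockout level lie so close together was not counted. Apoc1, next to Apoc2, had 23.3 and 0 FPKM in the knockout libraries, against 8.75 and 1.80 FPKM in wild-type libraries, and Apoe had 11.3 and 0.0543 FPKM in the knockout libraries, against 2.41 and 5.19 FPKM in wild-type libraries. Both had knockout libraries far apart and did not pass. Pvrl2, a nectin beside Tomm40, fell to 0.117 and 0.391 FPKM in the knockout libraries, against 2.63 and 4.33 FPKM in wild-type libraries (log2 difference -1.82 ± 0.36 SE, limma adjusted p = 0.0237, and 0.0742 with quantile scaling). Farther out, Irgc1 fell by 5.56 on the log2 scale (limma adjusted p = 0.000712) and 1700008P20Rik fell by 4.56 (limma adjusted p = 0.00276).

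**Figure D5:**
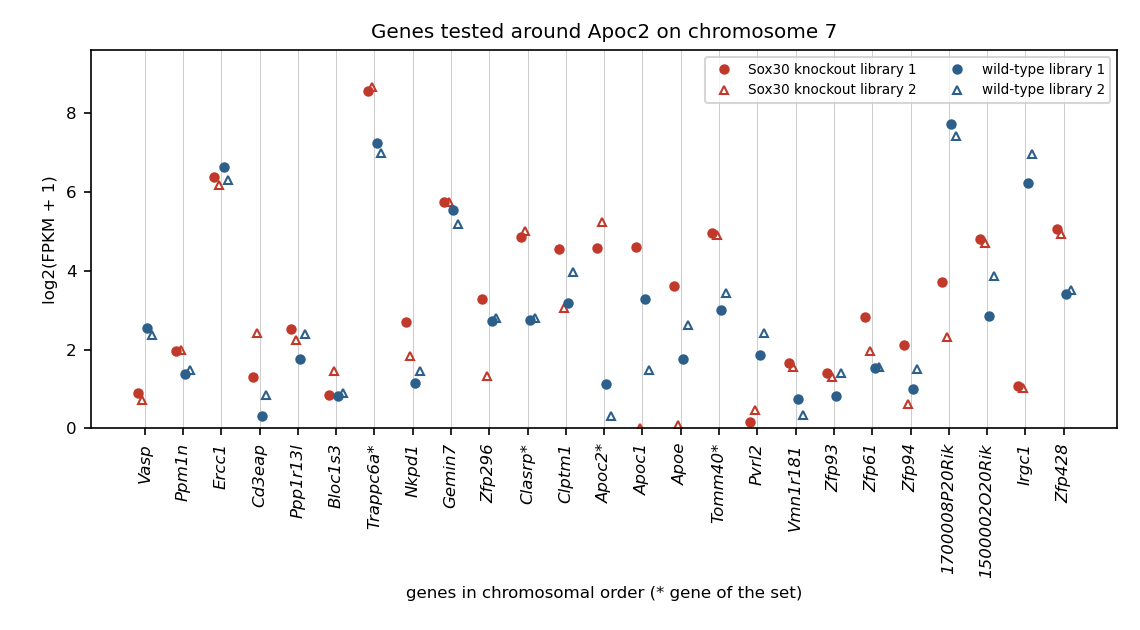
log2(FPKM + 1) of the tested genes within 12 positions of Apoc2 on chromosome 7, in RefSeq order, with red marks for the 2 Sox30 knockout libraries and blue marks for the 2 wild-type libraries; asterisks mark genes of the set. The 4 genes of the set are higher in both knockout libraries, while Apoc1 and Apoe, next to Apoc2, have knockout libraries far apart and Pvrl2 is lower.

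Over the set, the nearest tested genes on each side came to 92 genes outside it. Of these 3 rose (3.26%, against 1.95% of all genes tested) and 8 fell (8.70%, against 13.4%), by limma at an adjusted p under 0.05. Their median log2 difference was 0.05, against -0.23. The 3 that rose were Rangrf beside Arhgef15, Sco2 beside Ncaph2 and Fam25c beside Gm3219. Fam25c was low, at 3.16 and 1.98 FPKM in the knockout libraries, against 0 and 0 FPKM in wild-type libraries. With no filter on low values none of the 3 passed limma (adjusted p = 0.168 for Rangrf, 0.0938 for Sco2 and 0.110 for Fam25c). Rangrf did not pass limma with a pseudocount of 0.1 either (adjusted p = 0.0558). The 8 that fell included Pdpk1 beside Amdhd2 (log2 difference -3.32, limma adjusted p = 0.00303) and 1700120K04Rik beside Bcl7c (log2 difference -5.24, limma adjusted p = 0.000863).

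Exons of 18 of the 47 genes overlap an exon of another GENCODE gene, 14 of them on the opposite strand, and 10 overlap a gene that has values in the tables. Overlaps were sought for the set only. No share over all genes tested is known, so these counts do not show a trait of the set. Strand use in the counting is unknown from these sources, so reads that fall on shared exon bases cannot be assigned to either gene of a pair; the shared stretch runs from 6 bases, between Gm10941 and Pofut2, to 1694. Sco2, a copper chaperone of cytochrome oxidase, shares 829 exon bases with Ncaph2 on the opposite strand. It had 70.4 and 58.9 FPKM in the knockout libraries, against 25.2 and 17.9 FPKM in wild-type libraries (log2 difference 1.55, limma adjusted p = 0.0270, and 0.136 with GC correction). Ncaph2 had 24.2 and 20.8 FPKM in the knockout libraries, against 6.97 and 7.53 FPKM in wild-type libraries. Both had higher values in both knockout libraries, and Sco2 was the more abundant. Spsb3, which shares 1694 exon bases with Eme2, had 175 and 92.1 FPKM in the knockout libraries, against 44.2 and 69.6 FPKM in wild-type libraries (limma adjusted p = 0.125). Prr3, which shares 386 with Gnl1, had a log2 difference of -0.04, where Gnl1 had 73.2 and 51.9 FPKM in the knockout libraries, against 8.93 and 17.6 FPKM in wild-type libraries.

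RefSeq promoter windows were found for 39 of the 48 genes. The SOX core AACAAT, searched on both strands in windows of 300 bases, was present for 4 of the 39 (10.3%), among them Fhit, Ccl27b and Wfdc9. It was present for 7.33% of the other symbols with that knockout level and 8.11% of the genes tested. CCAAT was found for 21 (53.8%, against 45.0% and 44.5%) and GGGCGG for 24 (61.5%, against 62.6% and 62.6%). The cyclic AMP response element TGACGTCA was found for Znrd1as and Ncaph2 (5.13%, against 4.33% and 4.02%). Matches of different motifs can overlap at their ends, and a match is a description of the window, not of a bound site. The shares in the set were thus near those of all windows.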

How the data were processed

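Libraries of sorted haploid cells were prepared with a NEBNext Ultra kit for RNA, per the labels' protocols. The authors deposited gene levels in FPKM, a value per entry and library; TopHat2 2.0.6, Cufflinks 2.0.2, Cuffdiff and build mm9 are named per the submitters' processing notes, which give no settings. Each of the 4 tables held 23021 entries for 22552 symbols, and values of 259 symbols on several entries were summed. Groups and library numbers came from the sample titles.

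The members and gene lists were chosen with earlier results of these data known. Genes averaging at least 1 FPKM were fitted on log2(FPKM + 1) with limma 3.58.1 in R 4.3.3 (genotype only, mean-variance trend, two-sided, Benjamini-Hochberg over all 9124 genes, threshold 0.05; residual degrees of freedom 2, prior 3.84). Differences on this scale understate changes of low genes, and p-values measure only the spread between libraries. The fit was tested on simulated data in which only well-expressed genes were shifted, so that test does not cover calls of low genes. The 5 markers of the set, members leading by ratio or level, those at the thresholds, up to 6 per functional group, and pathway genes past the threshold were named, by a rule that also takes the 2 most abundant where none passed; other genes were picked after their values were seen.

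Lengths and GC content came from GENCODE M21 transcripts, and names, gene order and promoter windows from RefSeq GRCm38.p6. That build is not the authors', so no gene coordinates are given. Older symbols were matched by synonym for 5 members. Copies were sought with blastn 2.17.0. Of the set, 1 gene is left out of the text and of the plot of levels and is not reported here. Read counts were not used here, so no counting intervals are given. The library numbers were not shown to pair the samples.

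Alternatives were pseudocounts of 0.1 and 5, no filter, a mean of at least 5 FPKM, median-ratio and quantile scaling, a lowess GC correction (span 0.3), symbols listed once, a replicate block, leaving out each library, and other thresholds of the rule.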

Additional observations from a re-analysis of the deposited data

How the results depend on the processing

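The count of genes higher in the knockout by limma (178) was 113 with a pseudocount of 0.1, 32 with no filter, 284 with median-ratio scaling, 615 with quantile scaling and 82 with the library number as a replicate block. Same-numbered libraries had deviations correlated at -0.20, and a crossed pairing, added after seeing the data, gave 390. The count lower (1221) was 696 with no filter and 787 at a mean of at least 5 FPKM. With 1 library left out the counts ran from 0 to 984 higher and 0 to 3071 lower, and the lone library was then assumed to vary like the other genotype. The counts were 984 and 898 higher without knockout library 1 or 2, and 0 without either wild-type library, where limma gave 184 and 232 at an unadjusted p under 0.05. The count lower was then 386 and 0 (1180 unadjusted for the second). The pathway genes higher (1) numbered 2 with a pseudocount of 5, a mean of at least 5 FPKM, median-ratio scaling or GC correction, 4 with quantile scaling, 3 with the crossed pairing and 0 with no filter, and those lower (4) were 2 with a pseudocount of 0.1, a mean of at least 5 FPKM or quantile scaling and 0 with no filter. Leaving out a library gave 0 to 9 higher and 0 to 17 lower. The cause of these shifts was not tested. The set of 48 became 100 genes (median log2 ratio 1.31) at a ratio of 2, 12 (2.22) at a ratio of 4, 124 with quantile scaling and 79 to 154 with 1 library left out. Median-ratio scaling chose 65, of which 44 were among the 48, without Fhit, Mosc2, Mrpl41 and Trappc6a. Of 14 genes outside the set named with a limma call, Lipe, Sco2 (adjusted p = 0.0553) and Rangrf (0.0656) did not pass under the block. No difference of these 14 changed sign where the alternatives gave a value. The same held for the 48, but the rule chose them by this direction, so for them it is only a description. Named genes that did not pass were not followed through the alternatives. Depth is unknown, which limits what can be said of genes under 1 FPKM.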

Other observations

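The 16 symbols that met both thresholds and were left out by name had ratios of lower knockout to higher wild-type value from 2.51 to 4.30, within the range of the 48. Egln2, a prolyl hydroxylase of hypoxia-inducible factors, had 286 and 201 FPKM in the knockout libraries, against 21.7 and 52.8 FPKM in wild-type libraries. Slc25a28, the mitochondrial iron importer mitoferrin 2, had 15.7 and 26.2 FPKM in the knockout libraries, against 4.98 and 5.74 FPKM in wild-type libraries. The proteasome genes Psmd13 and Psmd9 had ratios of 2.52 and 2.53, and the ribosomal protein genes Rpl26 and Rpl37a ratios of 3.02 and 2.56. Rpl37a had 54.8 and 115.7 FPKM in the knockout libraries, against 19.1 and 21.4 FPKM in wild-type libraries, so like Rpl26 it was much higher in knockout library 2 than in knockout library 1. The highest ratio among the 16 was that of 2310043J07Rik, 6 steps from Myl10 in the order of tested genes.

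Pairs up to 10 steps apart in that order were sought, and several of the 16 lie so near a gene of the set. Egln2 is 4 steps from Adck4, Rpl26 is 2 steps from Arhgef15, Slc25a28 is 3 steps from Avpi1, Psmd13 is 2 steps from Ifitm3, and Zfp428 is 9 steps from Tomm40. Within the set, Gnl1 and Znrd1as are 5 steps apart on chromosome 17. The share of all tested genes that lie so near a gene of the set is not known, so these pairs do not show a grouping. The distances are given as values and were not tested.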
